A study of Mus musculus with 20 samples.

Results

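The genes described here are 33 genes of megakaryocytes and platelets, measured in the femoral shaft of Hyp mutant mice and their unaffected littermates. They were chosen by symbol, with the rule that every probe set annotated to a member is used if it was called present, meaning detected above background by the array software, on 5 or more of the 20 arrays. A probe set named for the gene alone was found for 30 of the 33, and Gp1ba, Serpine2 and Ptgs1 are not analysed here. The probe sets of Gp6, a collagen receptor, and Cd226, an adhesion receptor of the immunoglobulin family, were called present on 2 and 1 of the 20 arrays and were not tested. That left 28 genes with 47 of their 54 probe sets, out of 12430 genes and 27141 probe sets tested in all. Each gene is represented below by its brightest probe set. Arrays were compared in 5 series, each of which held 1 array per group from littermates handled side by side, so that 10 same-series pairs, 5 in each sex, set Hyp against normal. Some members, such as Gp5 and Nbeal2, passed the filter mainly through Hyp arrays, so counts over the tested members describe them and carry no weight of their own.

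All mice were 5 weeks old and on the C57BL/6J background, and the labels give no other allele and no treatment for any group. Hyp, a deletion of the 3′ end of the X-linked gene Phex, was hemizygous in males (Hyp/Y) and heterozygous in females (Hyp/+), and the normal groups were wild-type littermates of each sex. Each of the 4 groups had 5 arrays, and each array held equal RNA of 2 mice of one genotype and sex, 40 mice in all. The tissue was the diaphysis of both femora, with the ends cut off and the marrow washed out with saline as far as possible. Phex encodes a membrane-bound peptidase made by bone-forming cells, and its loss causes the phosphate wasting and poor mineralization of X-linked hypophosphatemia.

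Megakaryocytes are the large, polyploid marrow cells that bud off platelets into the blood. Platelets adhere to a damaged vessel through the glycoprotein Ib-IX-V complex, clump through the integrin αIIbβ3, and release stored chemokines and clotting factors from their granules. Both are cells of marrow and blood, which flushing may not remove in full, and other cells of bone make some of the same genes.

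The 20 arrays shared one trimmed mean signal of 500.0 and called between 49.3% and 56.9% of probe sets present. Phex signals lay between 2391 and 4003 in normal and 3.8 and 48.2 in Hyp males. They lay between 3388 and 5764 in normal and 356.5 and 847.2 in Hyp females, which is the order the labelled genotypes give. Signals are linear fluorescence units as deposited. Changes are given as log2 of the signal plus 16, with the standard error (SE) of one limma fit over all arrays, and p was adjusted over all 27141 probe sets by Benjamini and Hochberg. "Rose" and "fell" are used below only for an adjusted p under 0.05.

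The 3 marker genes of the lineage were detected. Itga2b, which encodes the αIIb chain of the platelet integrin, and Pf4, which encodes the granule chemokine platelet factor 4, were called present on 20 of 20 arrays. Gp5, the glycoprotein V subunit of the receptor for von Willebrand factor, was called present on 10 of 20 arrays, 5 of them Hyp males, 3 Hyp females, 2 normal males and 0 normal females. In RNA of a whole shaft, a difference in the number of megakaryocytes and a difference in RNA per megakaryocyte cannot be told apart.

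The stretches before the starts of the 2 members that passed the test and of the other 2 markers are shown because GATA and ETS factors are the known switches of megakaryocyte genes. They are the 250 bases before the start in RefSeq, build GRCm38.p6, written 5′ to 3′ on the strand of the gene. Capitals mark the words searched on both strands, which for GATA factors were the word AGATAA, the word AGATAG, the word TGATAA and the word TGATAG. For ETS factors they were the word CGGAAG and the word AGGAAG. No marked words overlap each other. The Gp5 stretch is chr16:30310782-30311031 on the minus strand, the Alox12 stretch chr11:70255371-70255620 on the minus strand, the Itga2b stretch chr11:102469884-102470133 on the minus strand and the Pf4 stretch chr5:90772185-90772434 on the plus strand.
Gp5: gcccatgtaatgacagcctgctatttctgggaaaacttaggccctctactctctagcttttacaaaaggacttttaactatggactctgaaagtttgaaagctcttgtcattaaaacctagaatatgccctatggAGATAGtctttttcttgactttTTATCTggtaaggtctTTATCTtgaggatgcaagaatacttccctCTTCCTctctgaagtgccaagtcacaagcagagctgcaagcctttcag
Alox12: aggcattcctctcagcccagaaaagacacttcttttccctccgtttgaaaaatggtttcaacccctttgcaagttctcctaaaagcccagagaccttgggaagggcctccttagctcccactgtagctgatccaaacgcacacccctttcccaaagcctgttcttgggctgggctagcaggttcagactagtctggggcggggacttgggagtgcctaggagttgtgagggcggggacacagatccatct
Itga2b: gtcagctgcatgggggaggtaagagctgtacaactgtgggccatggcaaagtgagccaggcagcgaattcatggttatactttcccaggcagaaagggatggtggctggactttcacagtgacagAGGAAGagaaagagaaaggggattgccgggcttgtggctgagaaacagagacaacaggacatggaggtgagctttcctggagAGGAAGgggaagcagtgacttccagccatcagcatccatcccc
Pf4: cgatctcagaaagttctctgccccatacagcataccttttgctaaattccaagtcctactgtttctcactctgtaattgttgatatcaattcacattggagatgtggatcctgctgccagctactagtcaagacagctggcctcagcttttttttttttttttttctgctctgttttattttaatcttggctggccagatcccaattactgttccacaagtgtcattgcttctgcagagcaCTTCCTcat

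The Gp5 stretch held 3 GATA words, beginning 115, 93 and 77 bases before the start, and 1 ETS word, while the Alox12 stretch held 0 of either. Itga2b held 2 ETS words and Pf4 held 1, with 0 GATA words in both. A stretch was found for 25 of the 28 tested members, and 7 of them (28%) held a GATA word, 14 (56%) an ETS word and 3 (12%) both. Over 27025 such stretches of all genes, the shares were 27.1%, 39% and 9.38%. A match is a run of letters and no shown binding site.

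Against normal littermates, 2 of the 47 member probe sets passed the test over both sexes, and both rose: Gp5, by 0.70 on the log2 scale, and Alox12, the platelet-type 12-lipoxygenase, by 0.63. The share of 4.26% stands beside 2.38% of all probe sets called in either direction and 1.08% that rose. No member fell, beside 1.3% of all, although Thbs1, Cd9 and Ltbp1 had changes below 0. The other members lay mostly above 0 without passing the threshold: 39 of 47 probe sets (83.0%) had a positive change, against 52.4% of all. At an unadjusted p under 0.05, 26 of 47 (55.3%) were higher in Hyp, against 11.5% of all. Over the 28 genes the median log2 change was 0.51, and over all probe sets 0.01. Genes nearest to platelets alone, with 9 of 11 tested, had a median of 0.64 and ran from 0.52 to 0.74. The 19 other tested members had a median of 0.36 and ran from -0.33 to 0.71. An adjusted p between 0.05 and 0.1 with a positive change was found for 10 probe sets (21.3%), against 2.63% of all, and they belonged to Itga2b, Treml1, Pf4, Selp, F5, Nbeal2, Fermt3, Gfi1b and, with its second probe set, Alox12.

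Both calls lay close to the threshold, with adjusted p of 0.0416 for Gp5 and 0.0481 for Alox12 in the limma fit. Without the series as a block, the adjusted p was 0.075 for Gp5 and 0.0678 for Alox12, and 0 member probe sets were called. The number called ran from 0 to 12 when 1 array or 1 series was left out, with 12 without normal male 5, 6 without normal male 3, 4 without Hyp male 5 or without series 3, and 0 in 17 of the 25 refits.

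Among the adhesion receptors, Gp5 rose, and the other 5 tested genes of the platelet surface proper had changes between 0.52 and 0.64 that did not pass. In males of series 1 to 5 the Gp5 signal was 431.2, 317.5, 737.8, 367.1 and 463.1 in normal mice and 904.4, 1311.6, 1026.8, 646.8 and 649.4 in Hyp mice. In females it was 381.3, 400.5, 591.4, 432.9 and 302.1 in normal mice and 999.6, 376.9, 622.6, 415.7 and 581.0 in Hyp mice. Every male pair was higher in Hyp, while females were higher in 3 of 5 pairs, and the 2 groups of each sex overlapped. The change over both sexes was 0.70 ± 0.17 (SE), a 1.62-fold higher value with a 95% interval of 1.27 to 2.07. In females, where 0 of 5 normal and 3 of 5 Hyp arrays called Gp5 present, the fitted fold was 1.36 with a 95% interval of 0.959 to 1.92, which includes no change, and an adjusted p of 0.558.

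Itga2b was measured well on every array. Its signals in normal males were 883.9, 888.4, 1616.3, 718.3 and 1322.8, and in Hyp males 2120.2, 2935.2, 2136.8, 2000.2 and 1147.3. Normal females gave 804.5, 990.6, 1091.0, 729.5 and 661.1, and Hyp females 1906.4, 814.8, 975.7, 950.5 and 914.5. Among Hyp males 4 of 5 arrays stood above every normal male, with series 5 inside the normal range, and Hyp female 1 stood far above the other 4 Hyp females. The change was 0.62 ± 0.18 (SE) with an adjusted p of 0.0739, higher in 7 of 10 pairs.

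Among the other receptors, Gp1bb, the β chain of glycoprotein Ib, had a mean signal of 670 ± 266 (SD, n = 5) in normal males and 1275 ± 473 in their Hyp littermates. In females the means were 546 ± 117 without and 656 ± 355 with the mutation. Its change of 0.54 ± 0.21 (SE) had an adjusted p of 0.155, and a second probe set of the gene gave 0.19. Gp9, the glycoprotein IX subunit, was called present on 11 arrays, 5 of them Hyp males, and its signals ran from 76.7 to 492.9 with a change of 0.52 ± 0.23 (adjusted p 0.218). Clec1b encodes CLEC-2, the platelet receptor for podoplanin, and had a change of 0.64 ± 0.24 (adjusted p 0.154). Treml1, a receptor of the α-granule membrane, was called present on 7 arrays and had a change of 0.56 ± 0.15 (adjusted p 0.0605). Cd9, a tetraspanin that many other cells make too, had signals between 3705 and 5856 and a change of -0.14 ± 0.08 (adjusted p 0.383). The untested probe set of Gp6 ran from 48.6 to 190.7, and that of Cd226 from 6.0 to 92.6.

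**Figure D1:**
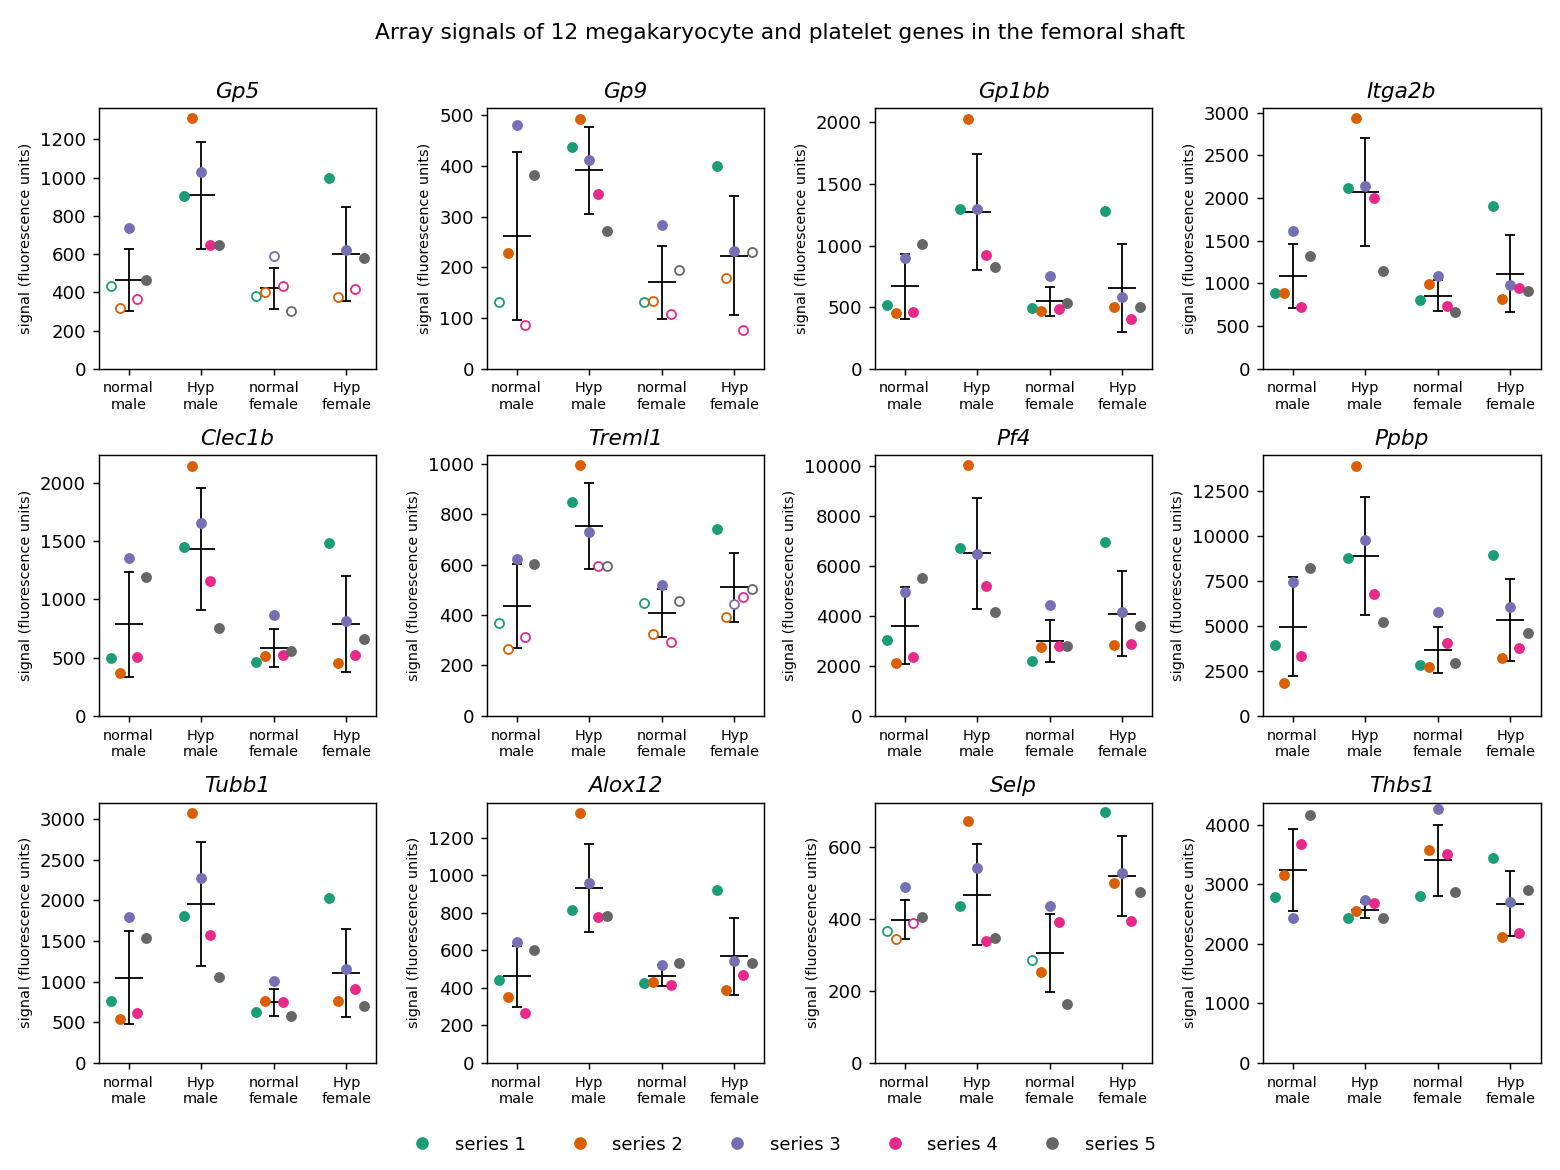
Signals in fluorescence units (vertical axis, linear, from 0) of 12 members in the 4 groups of genotype and sex, with 1 point per array coloured by series, filled where the probe set was called present and open where it was not. Horizontal ticks are group means and bars are SD over 5 arrays. For most genes shown, Hyp males of series 1 to 3 and Hyp female 1 stand highest, while Thbs1 runs the other way.

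The 3 tested receptors for soluble agonists gave 0 calls, beside 2.38% of all probe sets, and changes of 0.08 to 0.29. F2rl2, which encodes protease-activated receptor 3, the cofactor of thrombin signalling on mouse platelets, was higher in every male pair and in 2 of 5 female pairs, with changes of 0.63 ± 0.23 in males and -0.04 ± 0.23 in females. P2rx1, the ATP-gated channel, had the opposite order, with -0.01 ± 0.26 in males and 0.58 ± 0.26 in females, and Hyp female 1 was its highest array at 375.8. The interaction of genotype and sex was not called for either, with adjusted p of 0.756 and 0.785. A second tested F2rl2 probe set, called present on 10 arrays, did not repeat the difference between the sexes. It gave 0.35 ± 0.24 in males and 0.43 ± 0.24 in females, and was higher in Hyp in 4 of 5 male and 3 of 5 female pairs. P2ry12, the ADP receptor that clopidogrel blocks, had signals of 53.3 to 166.2 and a change of 0.08 ± 0.15.

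Granule contents and the proteins that build granules made up 10 tested genes, of which 8 had positive changes and 0 were called. Over all probe sets 52.4% were positive and 2.38% were called. Pf4 signals in males of series 1 to 5 were 3052.4, 2132.7, 4950.2, 2365.9 and 5521.7 in normal mice and 6736.7, 10028.4, 6482.3, 5191.4 and 4139.3 in Hyp mice. In females they were 2201.5, 2739.5, 4423.5, 2789.9 and 2794.7 in normal mice and 6955.8, 2823.6, 4157.9, 2879.8 and 3613.2 in Hyp mice. The Hyp arrays were higher in 8 of 10 pairs, the exceptions being male series 5 and female series 3, and the groups overlapped in both sexes. The Pf4 change was 0.65 ± 0.21 with an adjusted p of 0.0989. Ppbp, which encodes the other main platelet chemokine precursor, pro-platelet basic protein, had the largest change of the tested members at 0.74 ± 0.25 (adjusted p 0.119), and its signals ran over a 7.64-fold range from 1815 to 13866.

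Selp, the P-selectin of granule membranes and of endothelium, had its larger change in females with its brightest probe set, unlike the platelet-restricted genes. Its signals in normal females were 287.2, 254.6, 436.3, 391.1 and 164.7, and in Hyp females 698.2, 499.9, 529.4, 396.1 and 476.7. Hyp was higher in all 5 female pairs, with a change of 0.78 ± 0.21 (adjusted p 0.224), and in 3 of 5 male pairs, with 0.19 ± 0.21. Over both sexes the change was 0.48 ± 0.15 (adjusted p 0.0872), and the interaction was not called (adjusted p 0.756). A second tested Selp probe set, called present on 6 arrays, did not repeat this order. It gave -0.27 ± 0.31 in females, 0.07 ± 0.31 in males and -0.10 over both sexes, and was higher in Hyp in 1 of 5 female pairs.

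Mmrn1, the factor V carrier multimerin of platelets and endothelium, had a change of 0.49 ± 0.16 (adjusted p 0.108), and F5, clotting factor V itself, 0.61 ± 0.19 (adjusted p 0.0979), with 0.66 from its second probe set. F13a1, the transglutaminase subunit of factor XIII, which macrophages make as well, had 0.38 ± 0.15 (adjusted p 0.169). Nbeal2, needed for α-granules to form, was called present on 0 of 5 normal males and 5 of 5 Hyp males, with a fitted Nbeal2 fold in males of 1.41 and a 95% interval of 1.16 to 1.73 (adjusted p 0.0985). Its change over both sexes was 0.36 ± 0.10 (adjusted p 0.0598), higher in 9 of 10 pairs, while a second probe set gave -0.05. Rab27b, a small GTPase of granule secretion, had a change of 0.04 ± 0.09, and its 4 probe sets ran from -0.27 to 0.13.

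The 2 granule genes below 0 are also made by connective tissue cells. Thbs1, the adhesive matrix protein thrombospondin 1, had male signals of 2437 to 4163 in normal and 2434 to 2738 in Hyp mice. Female signals were 2810 to 4266 in normal and 2122 to 3449 in Hyp mice. Its change was -0.33 ± 0.12 (adjusted p 0.140), lower in Hyp in 7 of 10 pairs, with -0.31 from the second probe set. Ltbp1, which anchors latent TGF-β, had a change of -0.13 ± 0.08 (adjusted p 0.400), with 0.29 from the second tested probe set.

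The 4 genes of the platelet cytoskeleton and of integrin activation had positive changes of 0.50 to 0.72, with 0 calls. Over all probe sets 52.4% were positive and 2.38% were called. Tubb1, the β1-tubulin of the platelet marginal band, had 0.72 ± 0.24 (adjusted p 0.104), with signals from 546.7 to 3074. Plek, pleckstrin, the major protein kinase C substrate of platelets, had 0.58 ± 0.21 (adjusted p 0.131). Rasgrp2, which encodes CalDAG-GEFI, the calcium-driven activator of Rap1, had 0.50 ± 0.17 (adjusted p 0.120). Fermt3, the kindlin-3 of blood cells that switches integrins on, had 0.60 ± 0.16 (adjusted p 0.0599), and each of these 4 genes was higher in 8 of 10 pairs. Plek and Fermt3 are made by other blood cells as well.

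Alox12 was the second member that rose. Its signals in males of series 1 to 5 were 440.1, 353.5, 643.7, 263.5 and 601.2 in normal mice and 815.2, 1332.7, 956.5, 777.1 and 782.4 in Hyp mice. In females they were 425.8, 431.6, 519.8, 415.2 and 532.5 in normal mice and 918.1, 387.8, 540.9, 466.6 and 530.7 in Hyp mice. Every Hyp male stood above every normal male, which was true of 1 of the 47 member probe sets and of 1.58% of all, while the female groups overlapped and Hyp female 1 stood highest. In females such a separation was found for 1 member probe set, beside 0.689% of all. It is a probe set of Rasgrp2 other than its brightest, and the separation held for 0 of the 28 brightest ones. The change over both sexes was 0.63 ± 0.16, a 1.55-fold higher value with a 95% interval of 1.23 to 1.95, and it was 1.03 ± 0.22 in males and 0.23 ± 0.22 in females. A second probe set gave 0.33 (adjusted p 0.0888), higher in 9 of 10 pairs. Tbxas1, thromboxane synthase, the other eicosanoid enzyme tested, had a change of 0.11 ± 0.13 (adjusted p 0.675).

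Of the 2 transcription factors, Gfi1b, a repressor that both megakaryocytes and red cell precursors need, had a change of 0.71 ± 0.19 (adjusted p 0.0624). Its signals in Hyp males were 1487.4, 842.5, 736.3, 731.4 and 790.0, and in normal males 349.0, 249.0, 518.0, 403.4 and 950.2, so that normal male 5 alone reached into the Hyp range. Fli1, an ETS factor that endothelium and other blood cells share, had 0.16 ± 0.13 (adjusted p 0.507). A Fli1 probe set other than its brightest was higher in Hyp in at least 9 of 10 pairs, the only one of the gene with 8 or more.

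**Figure D2:**
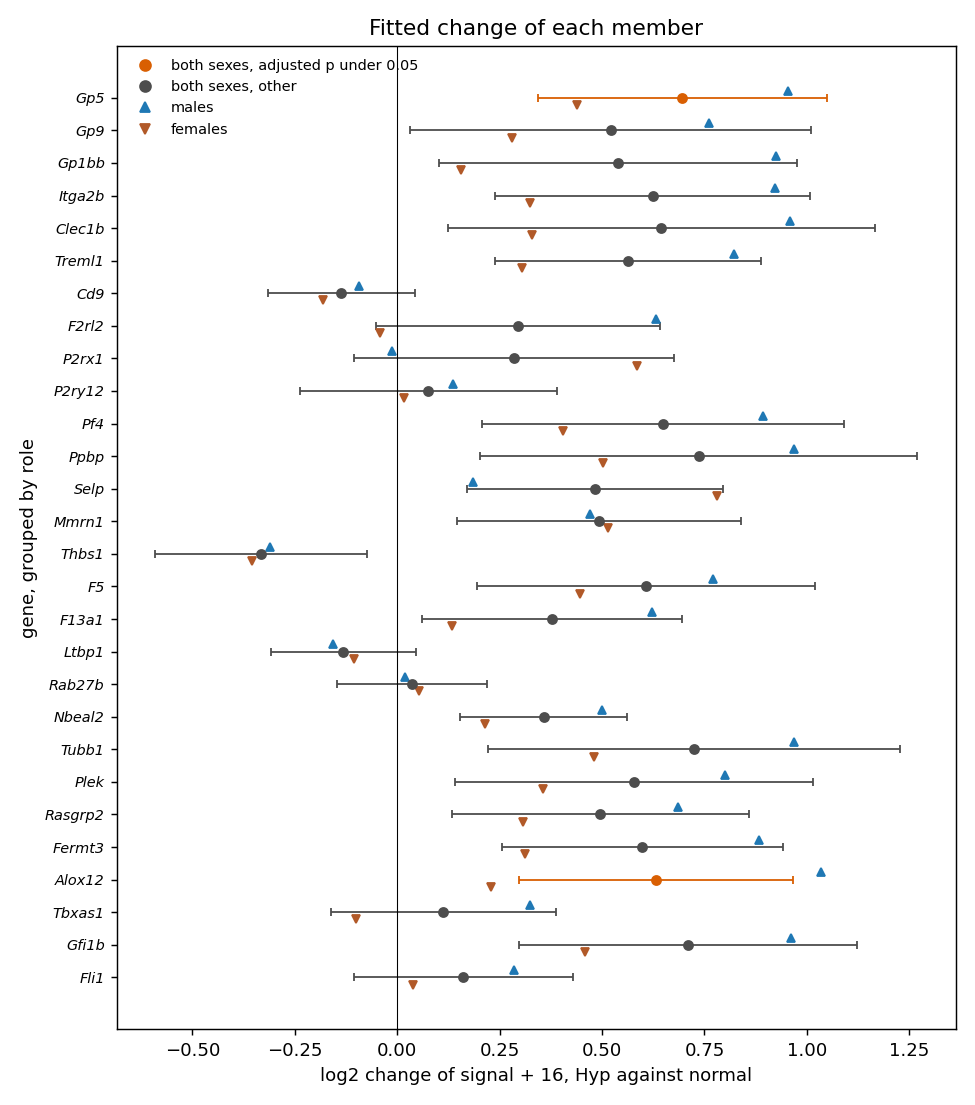
Fitted change of each of the 28 tested members, as log2 of signal plus 16 in Hyp against normal (horizontal axis), with genes in rows grouped by role. Circles and bars are the change over both sexes with its 95% interval, orange where the adjusted p is under 0.05 (Gp5 and Alox12), and triangles are the changes in males (pointing up) and females (pointing down). Most circles lie between 0.3 and 0.75, and Thbs1, Cd9 and Ltbp1 lie below 0.

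Within males 0 member probe sets were called, beside 0.0995% of all, and within females 0, beside 0.00368% of all. In males 41 of 47 (87.2%) had a positive change, against 51.6% of all, and 28 (59.6%) were higher at an unadjusted p under 0.05, against 10.3%. In females 36 of 47 (76.6%) were positive, against 53.4% of all, and 3 (6.38%), of P2rx1, Selp and Mmrn1, were higher at that level, against 4.82%. The median change of the 28 genes was 0.72 in males and 0.31 in females. The difference itself was tested as the interaction of genotype and sex: 0 member probe sets were called, beside 0.00368% of all, and 2, of Alox12 and Rab27b, had an unadjusted p under 0.05, beside 6.62% of all. The change was larger in males for 39 of 47 probe sets (83.0%), against 51.9% of all. The Alox12 interaction was -0.80 ± 0.32 (unadjusted p 0.0217, adjusted p 0.751). A larger effect in males than in females is therefore not shown by the test.

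The size of the difference varied widely from pair to pair. In the male pairs of series 1 to 5 the median over the 28 genes was 1.06, 1.36, 0.26, 0.87 and -0.22, and in the female pairs 0.92, -0.04, 0.02, 0.01 and 0.23. Thus 4 pairs, males of series 1, 2 and 4 and females of series 1, stood well above the rest, and male series 5 had the opposite sign, with 6 of 28 genes higher in Hyp. In each pair the median over all probe sets lay between -0.02 and 0.04. For the 9 platelet-restricted genes the medians were 1.23, 2.12, 0.39, 1.13 and -0.41 in males and 1.49, 0.04, -0.09, 0.01 and 0.29 in females. The fitted median of the members was 0.91 in series 1 and 2 alone and 0.17 in series 3 to 5 alone. Higher values in 8 or more of the 10 pairs were found for 21 of 47 probe sets (44.7%), against 13.3% of all, and in 10 of 10 pairs for 0, against 1.31% of all.

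**Figure D3:**
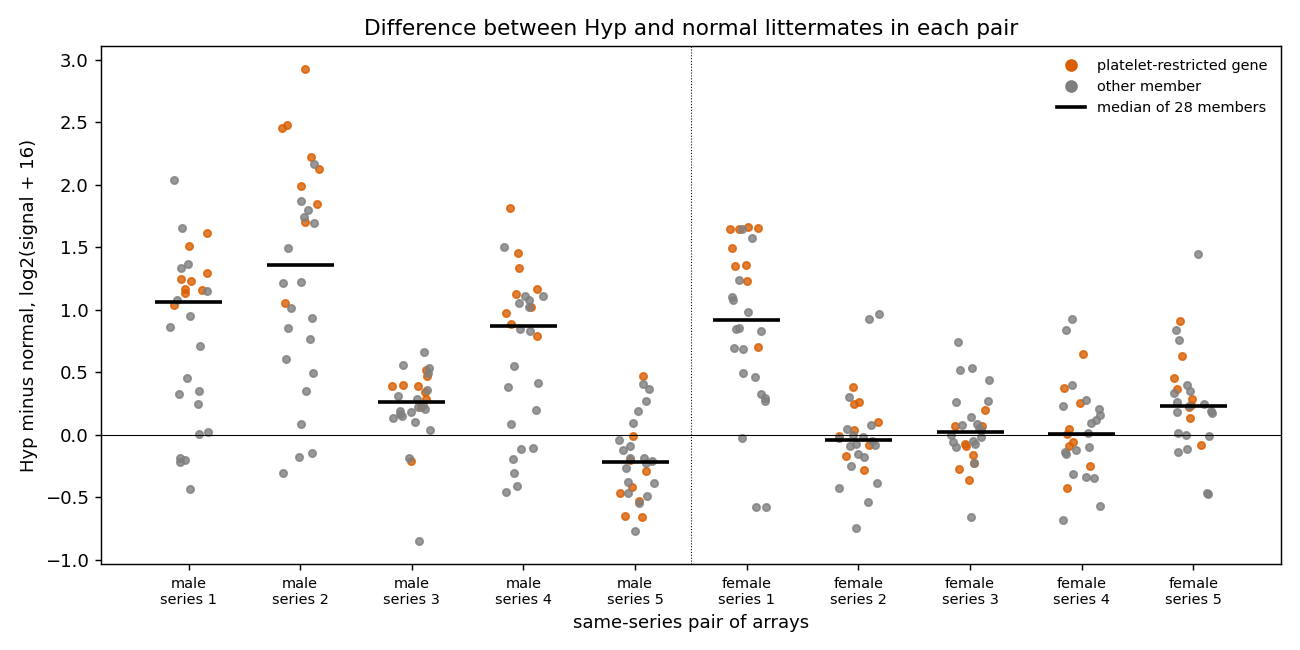
Difference between Hyp and normal in each of the 10 same-series pairs (horizontal axis), as log2 of signal plus 16 (vertical axis), with 1 point for each of the 28 members. Orange points are the 9 platelet-restricted genes, grey points the other 19, and bars the median over all 28. The bars stand near 1 in males of series 1, 2 and 4 and females of series 1, and at -0.22 in males of series 5.

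Arrays were ranked by the mean over the 28 genes of the log2 signal minus the gene's mean over the 20 arrays. Hyp male 2 ranked first at 0.85, and it held the highest signal of 17 of the 28 genes and of all 9 platelet-restricted ones. Hyp male 3 (0.57), Hyp male 1 (0.50) and Hyp female 1 (0.46) followed, then normal male 3 (0.33), Hyp male 4 (0.29) and normal male 5 (0.29). At the bottom stood normal male 2 at -0.46, with the lowest signal of 8 genes, just below normal female 1 at -0.43. Normal males thus covered almost the whole range, from rank 5 to rank 20. Among males the mean was -0.11 ± 0.39 (SD, n = 5) in normal and 0.46 ± 0.29 in Hyp mice. Normal females averaged -0.30 ± 0.20 and Hyp females -0.05 ± 0.34, and each Hyp group overlapped its normal group. The top 4 arrays and the last rank were the same for the platelet-restricted genes alone, which are part of the 28. For the other members the top 4 were also the same, but normal female 1 was last and normal male 2 had rank 17.

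**Figure D4:**
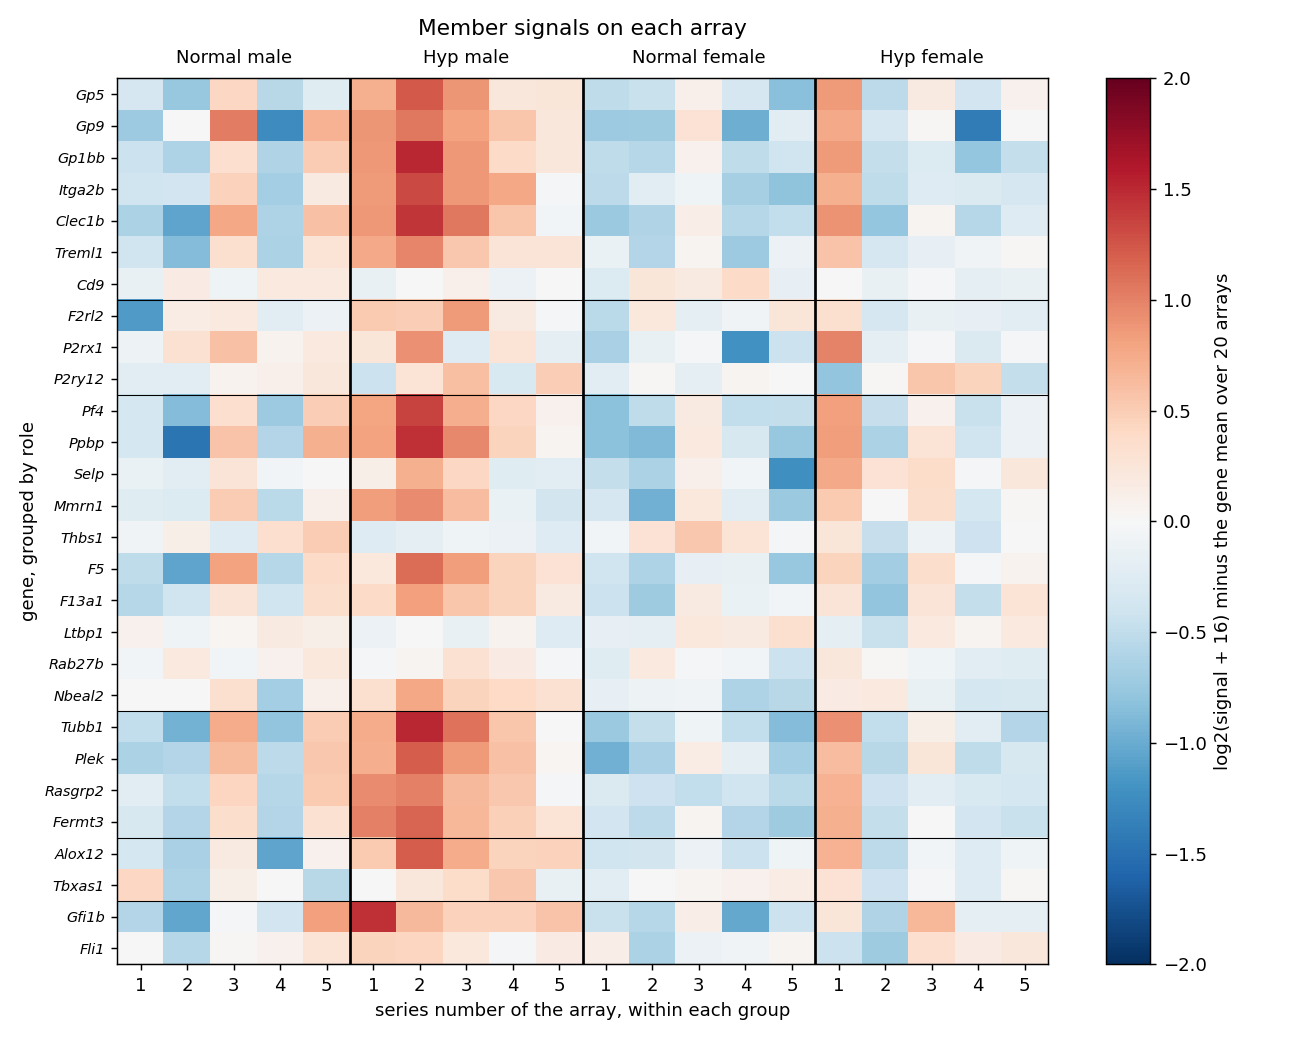
Log2 of signal plus 16 minus the gene's mean over the 20 arrays (colour, red above and blue below the mean) for the 28 members in rows, grouped by role, and the 20 arrays in columns, numbered by series within each group. Columns of Hyp males 1 to 3 and Hyp female 1 are red for most genes and that of normal male 2 is blue, while Cd9, Thbs1, Ltbp1, Rab27b and P2ry12 do not follow the others.

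Females had lower signals than males for most members. The comparison of female with male arrays gave 0 member calls, beside 0.133% of all probe sets, with a median of -0.38 over the 28 genes and 0.00 over all. At an unadjusted p under 0.05, 22 of 47 (46.8%) differed, all of them lower in females, beside 13.9% of all in either direction. The changes were -0.66 ± 0.23 for Gp9, -0.61 ± 0.21 for Gp1bb, -0.60 ± 0.18 for Itga2b and -0.40 ± 0.10 for Nbeal2, with adjusted p of 0.230, 0.216, 0.168 and 0.121.

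The members varied more between arrays than most genes. Their median range over the 20 arrays was 1.98 on the log2 scale, and 2.27 for the platelet-restricted genes, against 1.17 for all probe sets tested. In the median member, genotype took 22.5% of the sum of squares, sex 13% and series 18%, while over all probe sets the medians were 4.91%, 3.59% and 26.9%. Gp5 had the largest share for genotype at 36.8%, followed by Thbs1 at 35.5% and Alox12 at 34.7%, and Rab27b the smallest at 0.982%.

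Of 18 regulators of the lineage, 16 were tested and 2 rose over both sexes, beside 1.08% of all probe sets. All 16 had positive changes, against 52.4% of all probe sets, with a median of 0.23. The 2 were Lyl1, a transcription factor of blood stem cells and precursors, at 0.54 ± 0.11 (adjusted p 0.0197), and Cxcl12, the stromal chemokine that holds megakaryocytes and stem cells in marrow, at 0.40 ± 0.09 (adjusted p 0.0312). Gata1, the master factor of megakaryocytes and red cells, had 0.44 ± 0.21 (adjusted p 0.257), and Nfe2, which drives platelet release, 0.58 ± 0.20 (adjusted p 0.117). Of 41 further genes of platelet receptors, signalling and secretion, 37 were tested. Itga6, the laminin-binding integrin chain α6, alone rose, at 0.40 ± 0.08 (adjusted p 0.0174), beside 1.08% of all probe sets. The list had a median of 0.13 and 29 positive changes, against 52.4% of all probe sets. Vwf, the von Willebrand factor that endothelium makes as well, had 0.52 ± 0.14 (adjusted p 0.0658), and Itgb3, the β3 partner of Itga2b, which osteoclasts also carry, 0.19 ± 0.16 (adjusted p 0.549).

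Markers of other cells also differed between the groups. Over all probe sets, 52.4% had a positive change, 1.08% rose and 1.3% fell. All 8 tested erythroid genes had positive changes, of 0.41 to 0.62 with a median of 0.47, and 0 were called. The erythroid median was 0.92 in males and 0.11 in females. Their mean, centred like that of the members, ran from -0.72 to 0.65 in normal and 0.36 to 1.38 in Hyp males. In females it ran from -0.95 to 0.08 in normal and -0.47 to 0.14 in Hyp mice. All 8 endothelial genes were positive too, with a median of 0.43, and 3 rose: Flt1, the VEGF receptor 1, at 0.46, Cldn5, a tight junction claudin, at 0.44, and Pecam1, which platelets carry as well, at 0.52. The endothelial mean ran from -0.46 to -0.03 in normal and 0.07 to 0.46 in Hyp males. In females it ran from -0.49 to 0.06 in normal and -0.06 to 0.45 in Hyp mice. Prg2, the eosinophil major basic protein, rose by 1.41 ± 0.19 (adjusted p 0.00387), and it is 1 of 2 tested genes of the 5 mast cell and eosinophil markers. The other, Kit, had 0.22 ± 0.11 (adjusted p 0.257) and was not called.

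Of 9 tested neutrophil genes 4 were positive, with a median of -0.01, and of 6 tested B lymphocyte genes 1, with a median of -0.22, and 0 were called in either list. In males alone 8 of 9 neutrophil genes were positive, with a median of 0.20, and in females 2 of 9, with a median of -0.18. Over all probe sets 51.6% were positive in males and 53.4% in females. The centred neutrophil mean was highest on Hyp male 2 (0.80) and Hyp female 1 (0.79), which held ranks 1 and 4 for the members. The 5 tested monocyte and macrophage genes had a median of 0.07 and 0 calls. Ccr2, a chemokine receptor, had 0.51 (adjusted p 0.0701), Mrc1 0.23 and Adgre1 0.07, while Csf1r had -0.15 and Cd68 -0.20. Of 6 T and NK lymphocyte markers 1 was tested, with a change of 0.11, and the 2 tested adipocyte genes had a median of 0.22. Of 5 osteocyte genes 3 fell, beside 1.3% of all probe sets: Phex, the deleted gene itself, Dmp1, a matrix protein, by 0.79, and Sost, which encodes sclerostin, by 1.31. Mepe had a change of -0.75 ± 0.20 (adjusted p 0.0561) and Fgf23 -0.09 ± 0.14 (adjusted p 0.775). The mean of the 5 osteocyte genes includes Phex, the deleted gene, which fell by 4.45, and the part of Phex in that mean was not tested. That mean was lower in Hyp in all 10 pairs, and it was lowest on Hyp male 2 (-1.91). A mean without Phex was not made. The osteoblast, osteoclast and skeletal muscle lists had medians of -0.10, -0.23 and 0.06, with 0 calls. The part of these cells in the result for the members was not tested. The actin 3′ to 5′ ratio of each array, a sign of RNA integrity, was higher in Hyp in 9 of 10 pairs, by 0.14 on the log2 scale on average. With that ratio in the fit, 0 member probe sets and 1 of all probe sets were called, and the median change of the members was 0.89. Because the ratio itself differed with genotype, this fit separates the 2 poorly, and 0.89 is not a corrected size of the change.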

How the data were processed

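RNA of femoral shafts was hybridised to 20 Affymetrix 1-colour arrays. The deposited intensity values are linear signals per probe set with a present, marginal or absent call, made with GCOS per the submitters' processing notes, and the version and scaling are not given in the sources used here. The deposited table also gives, as a score, the authors' F statistic for genotype, per the file headers. That statistic was recomputed from the signals as a check of the columns.

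Probe sets called present on 5 or more of 20 arrays were kept, and log2(signal + 16) was fitted with limma 3.58.1 in R 4.3.3, with 4 groups and the series as a block. The pseudocount shrinks the changes of dim genes. Adjusted p under 0.05 after Benjamini-Hochberg over 27141 probe sets was the threshold, and the fit was tested on simulated data. The number of arrays limits the precision, and log2 changes had a median SE of 0.115 in the pooled comparison and of 0.162 for 1 sex. Arrays of pooled mice are the replicates.

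The labels pair the arrays by series, as littermates processed in parallel. Same-numbered arrays of different groups deviated together with a median correlation of 0.215 (-0.0288 to 0.418 over 30 pairs), against -0.0698 for other pairs. All members are named, each by its brightest probe set, and values in every array are given for the 3 markers and for members called. Values in every array of Selp and Gfi1b were added after their values were seen. Lineage and marker lists and members were chosen with earlier results of these data known. Alternatives were the pseudocount, the filter, quantile normalization, the block, the authors' analysis of variance, the actin ratio, the series and each array left out. Promoter stretches are from RefSeq, GRCm38.p6.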

Additional observations from a re-analysis of the deposited data

Results flagged for a closer look

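In 8 of 120 groups of 5 arrays, 1 array lay far from the other 4 on the log2 scale used for the changes. The gap to its neighbour took more than 0.71 of the group's range (Dixon's 95% limit). Chance gives such a gap in about 5% of groups. Gaps and ranges are on that log2 scale, while the signals printed beside them for genes are linear. On linear signals the gaps, and the groups that pass the limit, can differ. Hyp female 1 was the far array for Itga2b (signal 1906.4, gap 0.789 of the range), F2rl2 (251.1, 0.718), P2rx1 (375.8, 0.804) and Rasgrp2 (893.3, 0.839). Normal female 3 was the far array for Gp1bb (751.9, 0.728), for the mean over the members (0.05, 0.796) and for the mean over the platelet-restricted members (0.10, 0.908). Hyp male 1 was the far array for Gfi1b (1487.4, 0.802). In each case the far array was the highest of its group.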

How the results depend on the processing

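Over both sexes, 2 member probe sets were called, and the number was 0 with the actin ratio as a covariate, with the analysis of variance on linear signals, with no filter on present calls, with no replicate block, and in series 1 and 2 or series 3 to 5 alone. It was 4 with probe sets called present on 20 of 20 arrays, 1 with a pseudocount of 1 and 5 with a pseudocount of 64. With 1 array or series left out it ran from 0 to 12. Of all probe sets, 647 were called, and the number was 1 with the actin ratio, 1226 with 20 of 20 present, 148 with no filter, 317 with no replicate block, 0 in series 1 and 2 and 1 in series 3 to 5, and 20 to 1343 with 1 array or series left out. In males alone, 0 member probe sets were called, 2 with 20 of 20 present and 1 with a pseudocount of 64, and 0 to 1 with 1 left out (1 without normal male 3 or normal male 5). Within series 1 and 2 or 3 to 5 fewer arrays entered the fit; for the other settings the cause was not tested. Gp5 missed the threshold in 23 of 34 alternatives (adjusted p 0.026 to 0.304) and Alox12 in 28 of 36 (0.0224 to 0.347). The member median was positive in 36 of 36 settings. Signs turned for P2ry12 with the actin ratio (-0.36), in series 1 and 2 (-0.0778) and with 1 array or series left out (-0.0643 without series 3, to 0.195), for Rab27b with 1 array or series left out (-0.0159 without series 1, -0.0152 without Hyp female 1, to 0.0849), and for Ltbp1 with the median of all its probe sets (0.0788). Probe sets not called present on most arrays, such as those of Gp5, Treml1 and Nbeal2, are limited by signal over background.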
